A study of Mus musculus with 6 samples.

Results

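The collagen genes of mouse neurospheres were taken as the protein-coding genes whose symbol has the form Col, a type number, the letter a and a chain number. The deposited table held 44 such genes among 54532 genes in all, of which 22046 are protein-coding. By the textbook families they comprise 11 fibrillar chains, 6 basement membrane chains, 2 multiplexins, 6 beaded filament chains, 9 fibril-associated chains, 3 short chains, 1 anchoring fibril chain, 4 transmembrane chains and 2 further chains.

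A collagen is a trimer of alpha chains wound into a triple helix, and each gene encodes a single chain. A collagen built from different chains therefore forms only when its partner chains are made together. Fibrillar collagens build the fibres of skin, bone and cartilage, type IV collagens form the network of basement membranes, and fibril-associated collagens (FACITs) sit on the surface of fibrils, where they space and link them. In the embryonic forebrain most collagen is found in the meninges, the vessels and the basement membrane at the pial surface, while neural progenitors make a smaller set of chains of their own.

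RNA was sequenced from primary neurospheres, floating spheres of neural progenitors from E14.5 C57BL/6 embryos, on day 6 of culture in EGF and bFGF. The WT group held 3 libraries, numbered 3, 6 and 7. The 3 KO libraries, numbered 1, 2 and 3, are labelled Ash2l cKO, in which D6-Cre deletes conditional alleles of Ash2l, a core subunit of the complexes that methylate histone H3 at lysine 4. D6-Cre acts in the developing dorsal forebrain, so cells of other origin keep the gene, and the labels do not say whether WT embryos carried Cre or conditional alleles. The spheres are labelled as derived from dorsal cortex, whereas the protocol describes dissection of the lateral ventricle walls. No label ties a library to its own embryo or culture, and p-values therefore measure the spread among the libraries at hand, some or all of which may be technical.

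The libraries held 16764480 to 21983659 counted reads, and 3 reads, taken as the floor, corresponded to 0.136 to 0.179 CPM (reads of a gene scaled to a common library size). The floor was scaled by raw library totals and all other CPM values by normalised totals, so the 2 scales differ slightly. Values are listed in the order WT 3, 6 and 7, then KO 1, 2 and 3. Ash2l itself had 116, 113 and 109 CPM in WT and 86.3, 99.3 and 102 CPM in KO. All KO libraries were below all WT libraries, but the log2 fold change of -0.24 (SE 0.10) was not significant (adjusted p = 0.119, edgeR's quasi-likelihood test with Benjamini-Hochberg adjustment over all genes tested, used throughout), and these gene totals do not tell the deleted exons from the rest. Of the 16606 genes tested, 29% were called at a threshold of 0.05, with 13.5% above WT in KO and 15.5% below. WT 3 stood apart on the first principal component of all genes (-25.5 against -81.7 and -85.7), and KO 1 stood apart in the collagen genes. For the collagen genes, calls ended or made without 1 of these libraries, and fold changes moved by over 1.5 times, are therefore given.

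Neurospheres made little collagen RNA, and the KO libraries did not share one amount of it. Collagen genes took 0.0763%, 0.0714% and 0.0836% of the reads in WT and 0.222%, 0.0539% and 0.0608% in KO. Libraries KO 2 and KO 3 were below every WT library and KO 1 was far above them all, so the groups overlapped. In bulk RNA, fewer cells of a type and less RNA per cell cannot be told apart.

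Of the 44 genes, 36 had enough reads to be tested. Among them 13 were called, 6 higher in KO (Col5a3, Col15a1, Col18a1, Col6a1, Col12a1 and Col22a1) and 7 lower (Col27a1, Col14a1, Col16a1, Col20a1, Col9a1, Col9a2 and Col9a3). Against the 13.5% higher and 15.5% lower over all genes tested, these counts are near the background, and the number of calls says nothing particular about collagens. Without KO 1, 3 chains were higher and 7 lower of 37 tested, beside 8.68% higher and 8.15% lower over all genes, and without WT 3, 7 were higher and 7 lower of 38, beside 20.2% and 18.1%. The WT and KO values did not overlap in 19 of the 36 tested chains, beside 48.6% of all genes tested. The calls of 8 chains held whichever library was left out: Col27a1, Col16a1, Col20a1, Col9a1, Col9a2 and Col9a3 were lower, and Col18a1 and Col12a1 were higher. The median log2 fold change of the tested chains was 1.44, beside 0.00186 over all genes tested. It was 0.59 over the 37 chains tested without KO 1, a fit for which no median over all genes was taken. These medians give chains with few reads the same weight as the others. They do not show a general rise of collagen RNA, since its share of reads in KO 2 and KO 3 was below every WT library.

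**Figure D1:**
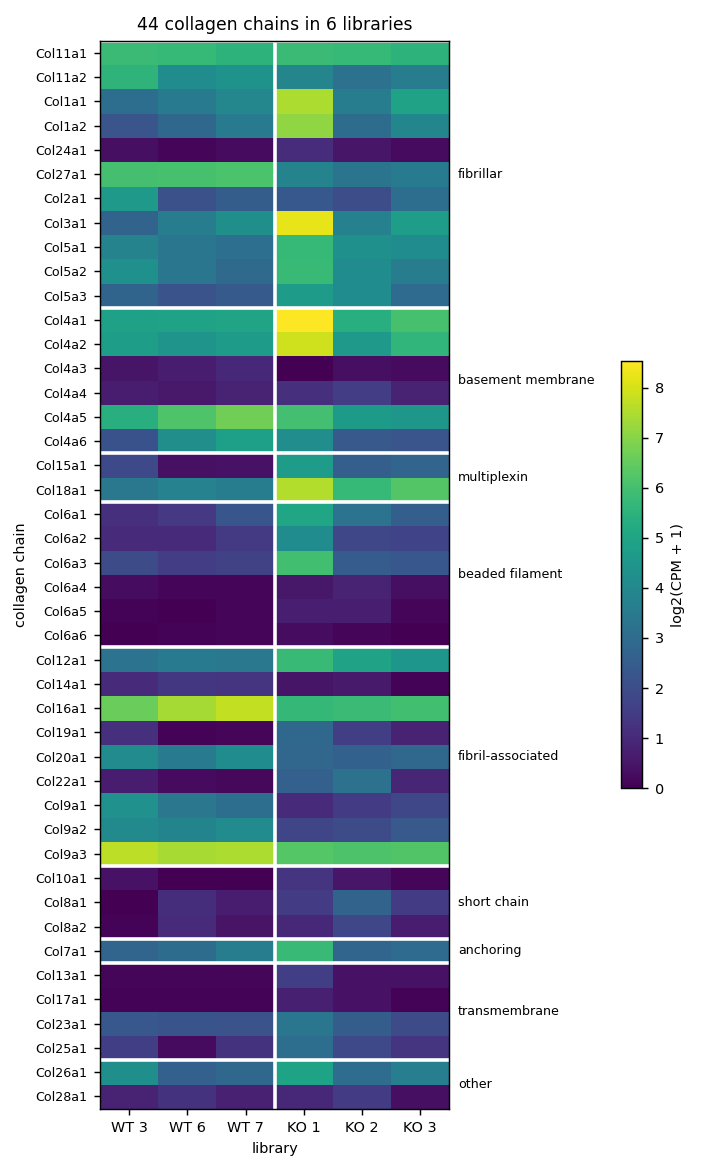
Level of the 44 collagen genes (rows, ordered by class) in each of the 6 libraries (columns), as log2(CPM + 1). KO 1 is brightest in Col1a1, Col1a2, Col3a1, Col4a1 and Col4a2, while Col27a1, Col16a1 and the Col9 rows darken from WT to KO in all 3 KO libraries.

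The classes of collagen that held most of the RNA were compared per unit of transcript length, as summed FPKM (fragments per kilobase of gene and per library size, the authors' values). FACITs made up 81.3, 74.6 and 84.7 FPKM in the WT libraries, 63.8%, 64.5% and 63.0% of all collagen FPKM. In KO they came to 35.7, 32.3 and 32.7 FPKM, which was 12.3%, 41.5% and 36.9% of the collagen total. The FACIT sum was thus lower in every KO library, at 0.419 of the WT mean, and nearly equal among them.

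The sums of the fibrillar class were 25.2, 16.9 and 18.5 FPKM in WT and 94.4, 16.5 and 19.2 FPKM in KO. Those of the basement membrane class were 14.4, 19.1 and 25.5 FPKM in WT and 100 FPKM in KO 1, against 13.6 and 19.9 FPKM in KO 2 and KO 3. In both classes KO 3 lay within the WT range, KO 2 just below it and KO 1 far above it. The multiplexins differed in all KO libraries, with 1.82, 1.81 and 1.59 FPKM in WT and 31.8, 8.35 and 11.7 FPKM in KO.

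**Figure D2:**
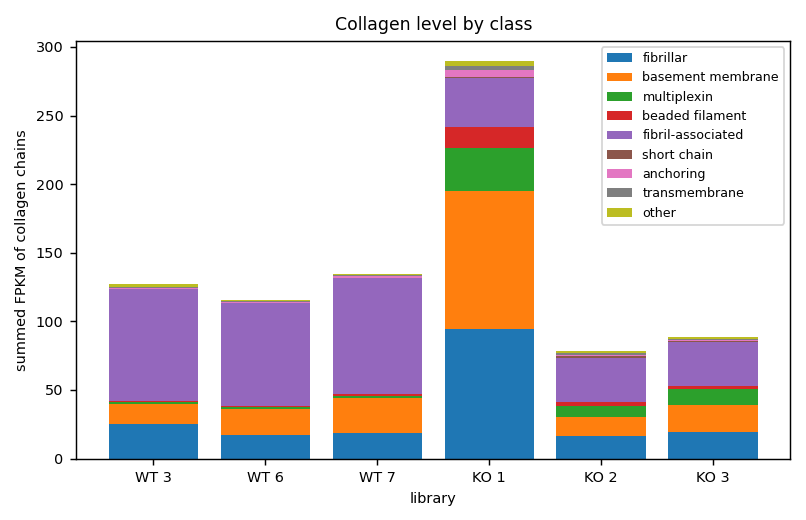
Summed FPKM of the collagen genes of each class, stacked, in each library. The fibril-associated block is between 74.6 and 84.7 FPKM in the WT libraries and between 32.3 and 35.7 FPKM in the KO libraries, and KO 1 carries large fibrillar and basement membrane blocks.

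Promoter windows are shown for 4 chains on which the results turn: Col4a1 and Col4a2, which start head to head and whose values moved together, Col9a2, which was lower in KO, and Col18a1, which was higher. Each runs from 250 bases before to 50 bases after a RefSeq start (GRCm38.p6), 5′ to 3′ on the gene's strand. For Col18a1 the start used was the one near the 5′ end of the gene as annotated in the deposited table. Gene totals were not assigned to single starts. Capitals mark the CCAAT box (CCAAT, or ATTGG on the other strand) and the GC box core (GGGCGG, or CCGCCC on the other strand), which did not overlap each other.
Col4a1 (chr8:11312777-11313076, minus strand): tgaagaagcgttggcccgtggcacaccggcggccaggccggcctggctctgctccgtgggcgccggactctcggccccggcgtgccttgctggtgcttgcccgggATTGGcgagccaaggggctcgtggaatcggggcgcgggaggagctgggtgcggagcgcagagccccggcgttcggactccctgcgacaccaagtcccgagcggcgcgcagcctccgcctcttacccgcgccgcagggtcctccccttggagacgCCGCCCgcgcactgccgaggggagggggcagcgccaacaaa
Col4a2 (chr8:11312555-11312854, plus strand): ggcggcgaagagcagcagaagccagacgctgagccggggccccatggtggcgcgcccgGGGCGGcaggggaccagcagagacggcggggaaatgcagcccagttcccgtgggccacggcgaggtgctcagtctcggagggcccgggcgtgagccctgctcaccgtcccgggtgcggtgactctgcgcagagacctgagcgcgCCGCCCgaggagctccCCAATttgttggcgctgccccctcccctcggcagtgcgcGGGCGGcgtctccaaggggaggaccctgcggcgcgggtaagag
Col9a2 (chr4:121039316-121039615, plus strand): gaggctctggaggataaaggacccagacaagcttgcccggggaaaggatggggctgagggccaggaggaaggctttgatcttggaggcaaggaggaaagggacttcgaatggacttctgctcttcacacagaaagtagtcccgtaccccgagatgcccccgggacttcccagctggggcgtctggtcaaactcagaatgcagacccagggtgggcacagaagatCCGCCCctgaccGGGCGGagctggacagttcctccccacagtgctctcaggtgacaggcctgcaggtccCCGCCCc
Col18a1 (chr10:77166481-77166780, minus strand): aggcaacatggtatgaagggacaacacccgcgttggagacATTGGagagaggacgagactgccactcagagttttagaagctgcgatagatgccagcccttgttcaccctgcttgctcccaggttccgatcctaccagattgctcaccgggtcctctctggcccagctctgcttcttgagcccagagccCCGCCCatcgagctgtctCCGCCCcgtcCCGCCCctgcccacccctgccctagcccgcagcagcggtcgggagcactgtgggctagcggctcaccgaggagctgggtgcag

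The table of RefSeq windows had entries for 35 of the 44 genes, with 38 windows among them. A CCAAT box was found on either strand in 13 of these 38 (34.2%), beside 37.4% of all 32851 mouse windows. A GC box core was found in 23 of them (60.5%), beside 35.7% of all windows. The windows of Col4a1 and Col4a2 share 78 bases, read from opposite strands. These matches are descriptions of letters, and no binding was measured here.

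Among fibrillar chains, Col27a1 was the only chain called lower. Its product forms thin fibrils, chiefly in cartilage. Col27a1 (chromosome 4, 63214004 to 63334991, mm10) had 63.2, 64.7 and 68.6 CPM in WT and 12.97, 8.80 and 10.2 CPM in KO. The WT libraries lay close together and far above all KO libraries. The level was 6.15-fold lower in KO (log2 fold change -2.62, SE 0.17, adjusted p = 0.000812 by edgeR's quasi-likelihood test), and -2.76 without KO 1.

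Chains of the major interstitial fibres were high in 1 KO library. Col1a1 and Col1a2 encode the chains of type I collagen, the main fibre protein of bone and skin, and Col3a1 the single chain of type III collagen, which shares its fibres in soft tissue. Col1a1 had 7.52, 10.7 and 14.5 CPM in WT and 177, 11.3 and 29.3 CPM in KO. Col3a1 had 5.61, 11.2 and 17.8 CPM in WT and 293, 12.6 and 26.2 CPM in KO. Col1a2 had 3.70, 6.43 and 10.4 CPM in WT and 136, 7.18 and 14.1 CPM in KO. In all 3 genes KO 2 lay within the WT range, KO 3 above it, and KO 1 lay at least 6.06-fold above the next library of its group.

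None of these 3 differences was called: the log2 fold changes were 2.73 (SE 0.95) for Col1a1, 2.94 (SE 1.10) for Col1a2 and 3.25 (SE 1.18) for Col3a1, with adjusted p of 0.0701, 0.0845 and 0.0782 in edgeR's quasi-likelihood test. Without KO 1 they were 0.91, 0.66 and 0.77. Other settings gave calls: DESeq2 called Col1a1 and Col3a1 higher (adjusted p = 0.0412 and 0.0389), and edgeR with no filter called all 3. Col1a1 was also called without KO 2 (3.24, adjusted p = 0.0387, edgeR). The ratio of Col1a1 to Col1a2 in FPKM stayed between 2.46 and 3.93 over all 6 libraries, while the level of Col1a1 itself ranged from 7.52 to 177 CPM.

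The minor fibrillar chains, which join type I and type II fibres and limit their width, were less uneven. Col5a3 had 5.67, 3.51 and 4.31 CPM in WT and 24.9, 16.7 and 6.86 CPM in KO, and rose by 1.84 on the log2 scale (SE 0.47, adjusted p = 0.0270 by edgeR's quasi-likelihood test). The groups did not overlap, but the call was lost without WT 6, WT 7, KO 1 or KO 2, where the log2 fold change went down to 1.42. Col5a1, a partner chain in type V collagen, had 13.1, 9.24 and 7.72 CPM in WT and 52.1, 18.2 and 16.6 CPM in KO, and narrowly missed the threshold (1.53, SE 0.48, adjusted p = 0.0507, edgeR). It was called without WT 3 (1.77, adjusted p = 0.0331), and its value was 0.83 without KO 1.

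Col5a2 had 18.6, 9.14 and 6.72 CPM in WT and 54.4, 16.6 and 10.9 CPM in KO, with overlapping groups (1.25, SE 0.65, adjusted p = 0.184, edgeR, and 0.29 without KO 1). Col11a1, a cartilage chain that also joins type V fibrils, had the log2 fold change nearest 0 of the tested fibrillar chains. Its values were 55.6, 51.3 and 45.2 CPM in WT and 55.1, 51.7 and 44.3 CPM in KO, with a log2 fold change of -0.01 (SE 0.13).

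The cartilage chains Col2a1 and Col11a2 were highest in WT 3. Col2a1, the chain of the main cartilage collagen, had 23.6, 3.36 and 4.78 CPM in WT and 4.09, 3.08 and 7.47 CPM in KO. Its log2 fold change of -1.11 (SE 0.76) turned to 0.26 without WT 3. Col11a2, a partner of Col11a1 in cartilage, had 46.2, 16.6 and 19.3 CPM in WT and 13.8, 8.10 and 11.3 CPM in KO. All KO values were below all WT values, but the log2 fold change of -1.31 (SE 0.42, adjusted p = 0.0569, edgeR) shrank to -0.70 without WT 3. Col11a2 was called lower by DESeq2 (adjusted p = 0.00648). It was also called with both WT 3 and KO 1 left out, a choice made after their values were seen (-0.88, adjusted p = 0.0306, edgeR). Col24a1, a further fibrillar chain, had 2 to 19 reads a library and was not tested.

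Type IV chains split by gene pair. The genes of type IV collagen lie in 3 pairs that are transcribed in opposite directions from neighbouring starts: Col4a1 and Col4a2, whose starts lie 21 bases apart on chromosome 8, Col4a3 and Col4a4, 72 bases apart on chromosome 1, and Col4a5 and Col4a6, 1309 bases apart on the X chromosome. Col4a1 and Col4a2 encode the chains of the common basement membrane network. The others form the networks of kidney, lung and smooth muscle, and mutations of COL4A3, COL4A4 or COL4A5 cause Alport syndrome in people.

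Col4a1 had 28.7, 29.0 and 30.6 CPM in WT and 369, 40.4 and 65.5 CPM in KO. Every KO library lay above every WT library, and KO 1 lay 5.63-fold above the next one. The log2 fold change of 2.43 (SE 0.79) was not called over all libraries (adjusted p = 0.0580, edgeR's quasi-likelihood test), whereas without KO 1 it was 0.87 (SE 0.21) and called (adjusted p = 0.0411). It was also called without KO 2 and without KO 3.

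Col4a2 had 26.2, 20.4 and 25.3 CPM in WT and 238, 23.8 and 47.5 CPM in KO, so that KO 2 lay among the WT libraries (2.10, SE 0.79, adjusted p = 0.0846, edgeR). Without KO 1 the log2 fold change was 0.59 (SE 0.30, adjusted p = 0.209). The ratio of Col4a1 to Col4a2 in FPKM was 0.970, 1.26 and 1.07 in WT and 1.37, 1.51 and 1.22 in KO, with an exact permutation p of 0.2 (two-sided; the smallest p that 3 against 3 allows is 0.1). Because the genes overlap at their starts and the use of strand in counting is not given in the sources used here, reads in the overlap may be counted for either.

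Col4a5 went the other way in KO 2 and KO 3. It had 39.3, 71.5 and 101 CPM in WT and 62.5, 24.2 and 21.8 CPM in KO. KO 1 lay within the WT range while KO 2 and KO 3 lay below it. The log2 fold change was -0.97 (SE 0.49, adjusted p = 0.171, edgeR) over all libraries and -1.59 (SE 0.39, adjusted p = 0.0445) without KO 1.

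Its neighbour Col4a6 had 3.48, 17.5 and 27.4 CPM in WT and 16.9, 4.16 and 3.74 CPM in KO. WT 3 was as low as KO 2 and KO 3, and KO 1 was near WT 6. The log2 fold change was -0.97 (SE 0.83, adjusted p = 0.398, edgeR), and -2.001 without KO 1 (adjusted p = 0.141). With both WT 3 and KO 1 left out, a choice made after their values were seen, Col4a6 was called lower (-2.50, SE 0.29, adjusted p = 0.0016, edgeR). The ratio of Col4a5 to Col4a1 in FPKM was 1.52, 2.74 and 3.67 in WT and 0.188, 0.666 and 0.369 in KO. It was above 1 in every WT library and below 1 in every KO library (exact permutation test, two-sided p = 0.1, the smallest that 20 splits allow). This pair was not among those planned for comparison. Col4a1 alone already separated the groups, so the split of the ratio is no independent evidence.

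The third pair was barely read. Col4a4 had 0.617, 0.502 and 0.758 CPM in WT and 1.21, 1.94 and 0.757 CPM in KO (1.04, adjusted p = 0.111, edgeR). Col4a3 had 7, 11 and 21 reads in WT and 0, 5 and 4 reads in KO, and was not tested.

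The multiplexins, proteoglycan collagens of the basement membrane zone, were higher in KO. Col18a1 encodes the chain from which endostatin, an inhibitor of vessel growth, is released. Col18a1 (chromosome 10, 77052178 to 77166548) had 9.59, 12.9 and 11.3 CPM in WT and 188, 52.1 and 74.9 CPM in KO. The lowest KO library was well above the highest WT library, and KO 1 was the highest. The rise was 9.31-fold (log2 3.22, SE 0.49, adjusted p = 0.00479 by edgeR's quasi-likelihood test), and it remained called, at 2.52 (SE 0.21), without KO 1. The gene overlaps Slc19a1 on the opposite strand, which had 22.8 to 28.2 CPM in WT and 31.9 to 36.1 CPM in KO and was not called (0.44, adjusted p = 0.0507).

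Col15a1, found in the basement membranes of muscle and vessels, had 2.69, 0.301 and 0.331 CPM in WT and 25.2, 5.02 and 5.96 CPM in KO. All KO libraries lay above all WT libraries, with WT 3 the highest of its group and KO 1 of the other. It rose by 3.46 on the log2 scale (SE 1.04, adjusted p = 0.0448, edgeR), a call that was lost without WT 6, WT 7, KO 1, KO 2 or KO 3. Without KO 1 the value was 2.35, and without WT 3 it was 5.21 (SE 0.95, adjusted p = 0.00542), with 6 and 7 reads in WT 6 and WT 7.

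Beaded filament chains of type VI collagen, which anchors cells and vessels to the matrix around them, were read at low levels outside KO 1. Col6a1 had 1.23, 1.66 and 3.84 CPM in WT and 31.4, 8.42 and 4.97 CPM in KO, without overlap, and rose by 2.72 (log2, SE 0.78, adjusted p = 0.0398, edgeR). The call was lost without any of WT 3, WT 6, WT 7, KO 1 or KO 2, and the value without KO 1 was 1.60.

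Its partner chains were not called. Col6a2 had 1.07, 1.05 and 1.70 CPM in WT and 16.7, 2.48 and 2.27 CPM in KO (2.47, SE 0.84, adjusted p = 0.0652, edgeR), and Col6a3 had 2.86, 1.91 and 2.13 CPM in WT and 60.1, 4.64 and 3.93 CPM in KO (3.31, SE 1.10, adjusted p = 0.0615). For both, all KO libraries lay above all WT libraries. Without KO 1 their log2 fold changes were 0.92 and 0.93. The later chains Col6a4, Col6a5 and Col6a6 had at most 15 reads in any library and were not tested.

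FACITs held 6 of the 7 chains that were lower in KO, and in the WT libraries most of the collagen FPKM. Type IX collagen is a trimer of the products of Col9a1, Col9a2 and Col9a3 that coats cartilage and vitreous fibrils, and all 3 genes fell. Col9a3 (chromosome 2, 180597790 to 180622189) was the collagen gene of highest FPKM in every WT library, where it made up 42.3%, 36.5% and 32.8% of all collagen FPKM. It had 205, 169 and 177 CPM in WT and 76.8, 69.5 and 72.5 CPM in KO, with little spread in either group. The level was 2.52-fold lower in KO (log2 fold change -1.33, SE 0.11, adjusted p = 0.000972 by edgeR's quasi-likelihood test).

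Col9a2 (chromosome 4, 121039385 to 121055322) had 16.0, 13.6 and 16.4 CPM in WT and 2.42, 2.86 and 4.16 CPM in KO, and fell by 2.28 on the log2 scale (SE 0.26, adjusted p = 0.00236, edgeR). Col9a1 (chromosome 1, 24177610 to 24252684) had 19.0, 9.44 and 7.39 CPM in WT and 1.04, 1.89 and 2.55 CPM in KO, and fell by 2.69 (SE 0.48, adjusted p = 0.00843, edgeR). In both genes the KO libraries were all below the WT libraries, and KO 1 was the lowest of them.

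The 3 partner chains were not read in equal amounts. The ratio of Col9a3 to Col9a2 in FPKM was 10.3, 10.03 and 8.65 in WT and 25.5, 19.5 and 14.0 in KO. That of Col9a3 to Col9a1 was 14.2, 23.6 and 31.5 in WT and 97.3, 48.4 and 37.3 in KO. Both ratios were higher in every KO library than in any WT library (exact permutation test, two-sided p = 0.1 for each). Of 7 ratios examined, 3 reached this smallest possible p, which no adjustment for 7 tests could bring under 0.05.

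Col16a1, whose product joins small fibrils and adhesion sites, had 94.2, 166 and 212 CPM in WT and 50.4, 55.9 and 60.6 CPM in KO. It was second in collagen FPKM in every WT library, and WT 3 was the lowest of its group but above all KO libraries. It fell by 1.501 (log2, SE 0.28, adjusted p = 0.00948, edgeR). Col20a1, a little-studied FACIT, had 16.4, 10.1 and 16.8 CPM in WT and 6.11, 5.24 and 6.15 CPM in KO and fell by 1.31 (SE 0.25, adjusted p = 0.0106, edgeR). The gene shares its strand with the overlapping transcript 9230112E08Rik (-0.30, adjusted p = 0.333), and how their shared reads were counted is not given in the sources used here.

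Col14a1, a FACIT of tendon and skin, had 1.07, 1.61 and 1.47 CPM in WT and 0.403, 0.540 and 0.0473 CPM in KO, the last being 1 read. It fell by 2.08 (SE 0.64, adjusted p = 0.0490, edgeR), a call lost without WT 6, WT 7, KO 1 or KO 2. These levels are close to the read floor, and no other called collagen gene that fell had so few reads.

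Col12a1 and Col22a1 were the FACITs that rose. Col12a1, a chain of dense connective tissue, had 8.47, 10.4 and 9.75 CPM in WT and 52.3, 29.2 and 21.1 CPM in KO. The WT libraries were nearly equal and all KO libraries lay above them. The rise was 3.57-fold (log2 1.84, SE 0.34, adjusted p = 0.00894 by edgeR's quasi-likelihood test) and 1.43 on the log2 scale without KO 1, where it remained called.

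Col22a1, a chain of tissue junctions such as that of muscle and tendon, had 0.617, 0.201 and 0.142 CPM in WT and 5.07, 8.15 and 0.899 CPM in KO. It rose by 3.88 (SE 0.92, adjusted p = 0.0217, edgeR), and KO 2, not KO 1, was the highest library. The call was lost without WT 6, WT 7, KO 1 or KO 2. The value without WT 3 was 4.73 and rests on 4 and 3 reads in WT 6 and WT 7. Col19a1 had 1.23, 0.0502 and 0.0947 CPM in WT and 6.40, 2.00 and 0.757 CPM in KO (2.75, SE 1.17, adjusted p = 0.116, edgeR). Its groups overlapped through WT 3, and without WT 3 it was called at 5.25 (SE 1.21, adjusted p = 0.0135). That value rests on 1 and 2 reads in WT 6 and WT 7, under the floor of 3 reads. Without KO 1 the value was 1.64.

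**Figure D3:**
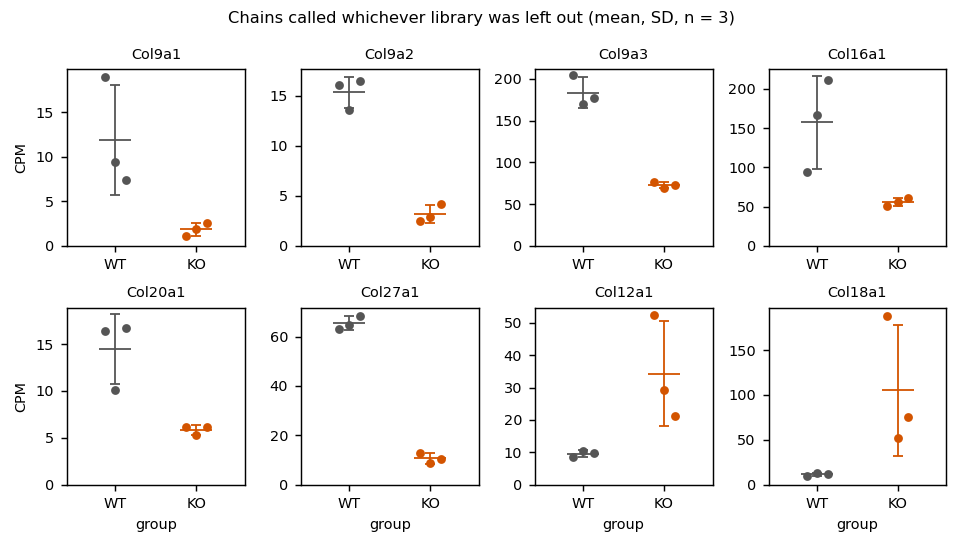
CPM of the 8 collagen genes that were called whichever library was left out, 1 panel each with its own axis from 0 (points: libraries; horizontal line and bar: mean and SD of 3 libraries). Col9a1, Col9a2, Col9a3, Col16a1, Col20a1 and Col27a1 are lower and Col12a1 and Col18a1 higher in every KO library than in any WT library.

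The remaining classes held no called gene. Col7a1, the chain of the anchoring fibrils of skin, had 5.89, 7.18 and 11.2 CPM in WT and 52.3, 5.88 and 6.86 CPM in KO. Only KO 1 was outside the WT range on the high side, and the log2 fold change of 1.42 (SE 0.85) turned to -0.32 without it. Col8a1, a short chain of vessel walls and the cornea, had 0, 1.15 and 0.616 CPM in WT and 1.79, 5.61 and 1.80 CPM in KO, with no overlap (2.34, SE 0.96, adjusted p = 0.105, edgeR). Its partner Col8a2 had 0.0561, 1.004 and 0.379 CPM in WT and 0.980, 2.48 and 0.615 CPM in KO (1.47, adjusted p = 0.224).

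Transmembrane collagens are made as membrane proteins and shed. Col23a1 had 3.93, 3.67 and 3.55 CPM in WT and 9.22, 4.70 and 2.93 CPM in KO (0.59, SE 0.42, adjusted p = 0.312, edgeR). Col25a1, a neuronal chain found in amyloid plaques, had 2.02, 0.201 and 1.37 CPM in WT and 7.38, 2.70 and 1.42 CPM in KO (1.67, SE 0.85, adjusted p = 0.173, and 0.81 without KO 1). In both genes KO 1 was the highest library and the groups overlapped.

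Col26a1 had 18.1, 5.07 and 6.30 CPM in WT and 29.7, 7.23 and 11.6 CPM in KO, the highest library of each group being WT 3 and KO 1 (0.72, SE 0.66, adjusted p = 0.426, edgeR). Its value was -0.04 without KO 1 and 1.502 without WT 3. Col28a1 had 0.710 to 1.36 CPM in WT and 0.284 to 1.78 CPM in KO (0.06, SE 0.64). Col10a1, the chain of hypertrophic cartilage, and the transmembrane Col13a1 and Col17a1 were not tested, with at most 25, 35 and 12 reads in KO 1 and fewer in all other libraries.

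**Figure D4:**
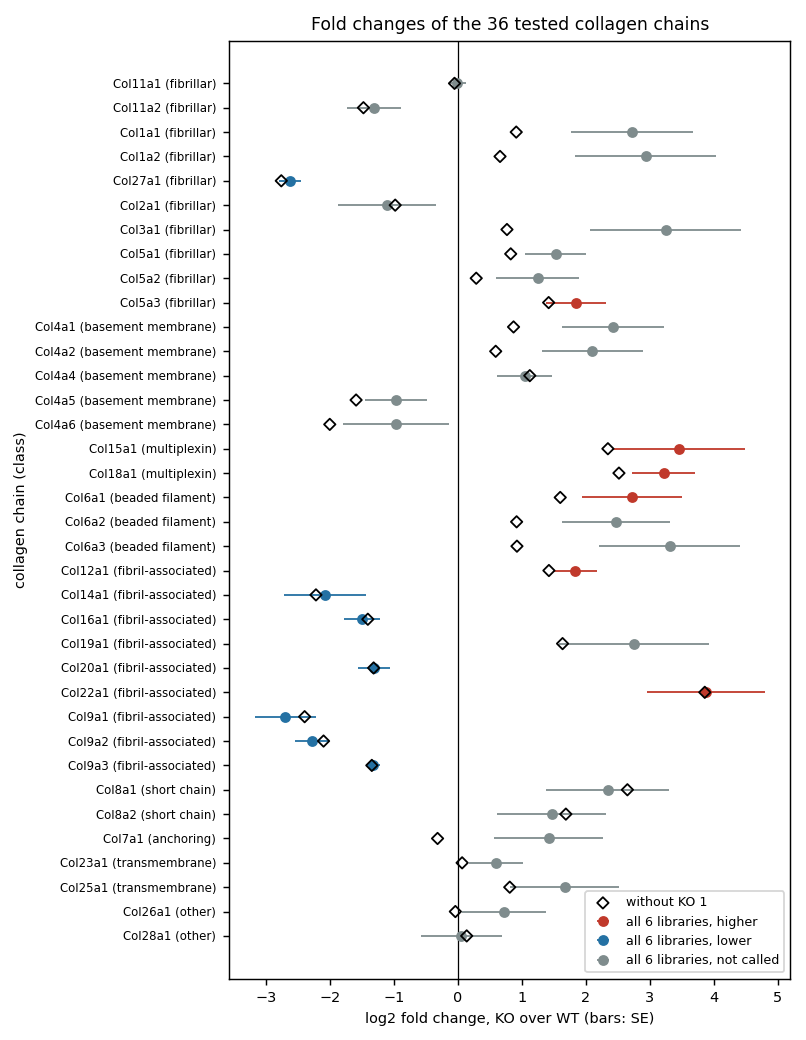
Log2 fold change (KO over WT) of the 36 tested collagen genes from all 6 libraries (filled points, bars show the SE, colour shows the call) and without KO 1 (open diamonds). Diamonds lie nearer 0 than the points for most of the genes that are above 0, such as Col1a1, Col3a1 and Col4a1, and close to the points for Col27a1, Col16a1 and Col9a3.

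KO 1 differed from its group in many chains. In 15 of the 44 genes, and in 13 of the 36 tested, KO 1 was at least 3-fold above both other KO libraries, beside 0.705% of all genes tested. The 13 were Col1a1, Col1a2, Col3a1, Col5a2, Col4a1, Col4a2, Col4a6, Col15a1, Col6a1, Col6a2, Col6a3, Col19a1 and Col7a1, and only Col15a1 and Col6a1 of them were called in KO against WT. KO 1 was the highest KO library in 30 of the 44 genes, a set that includes 8 genes not tested. Over all genes tested the share was 32.8%, so the sets are not alike. The 3-fold threshold was chosen after these values were seen.

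Summed markers of meningeal fibroblasts and microglia were also highest in KO 1, and those of mural, endothelial and choroid plexus cells were not. The summed level of 10 meningeal fibroblast markers was 11.2 to 11.9 CPM in WT and 110, 16.8 and 22.3 CPM in KO. Of 7 tested markers Lum and Slc6a13 were called higher and none lower, beside 13.5% and 15.5% over all genes tested. In 5 of the 10 markers, and in 4 of the 7 tested, KO 1 was at least 3-fold above both other KO libraries, beside 0.705% of all genes tested. Decorin (Dcn), a proteoglycan of fibroblasts, had 7.52, 3.01 and 2.84 CPM in WT and 34.7, 2.32 and 11.2 CPM in KO, and only Ogn was under 1 CPM in all libraries. In the same libraries the sum of Col1a1, Col1a2 and Col3a1 was 16.8, 28.4 and 42.7 CPM in WT and 607, 31.0 and 69.6 CPM in KO. The part of meningeal fibroblasts in the collagen values was not tested.

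The 6 microglial markers summed to 1.18 to 5.57 CPM in WT and to 16.1, 3.02 and 3.03 CPM in KO, with Aif1 and P2ry12 under 1 CPM throughout, and none of the 3 tested was called. The 10 mural markers summed to 233, 186 and 191 CPM in WT and 153, 176 and 236 CPM in KO, so that KO 1 was the lowest library. Acta2 and Anpep were higher and Notch3 lower of 7 tested, beside 13.5% and 15.5% over all genes tested. In 3 of the 7 tested KO 1 was at least 3-fold above both other KO libraries, beside 0.705% of all genes tested. Pdgfrb was among them, with 10.7, 3.51 and 3.22 CPM in WT and 26.0, 3.35 and 3.36 CPM in KO. The 10 endothelial markers summed to 8.58, 8.94 and 6.49 CPM in WT and 8.76, 8.21 and 6.76 CPM in KO. Cdh5, Cldn5, Tek, Tie1, Flt1 and Emcn were under 1 CPM in every library. Of 4 tested only Kdr was called, and it fell, beside 15.5% lower over all genes tested. The 5 choroid plexus markers summed to 4.49, 122 and 55.35 CPM in WT and 77.8, 258 and 85.4 CPM in KO. Kcnj13 was under 1 CPM throughout and none of 4 tested was called. Their part in the collagen values was not tested either.

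The neural progenitor markers that the label of the spheres names were read at high levels in every library. The 8 markers summed to 4006 to 5279 CPM in WT and 3881 to 5814 CPM in KO. All 8 were tested, and Sox1, Sox2, Pax6 and Msi1 fell and Nes rose. Over all genes tested 15.5% were lower and 13.5% higher.

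**Figure D5:**
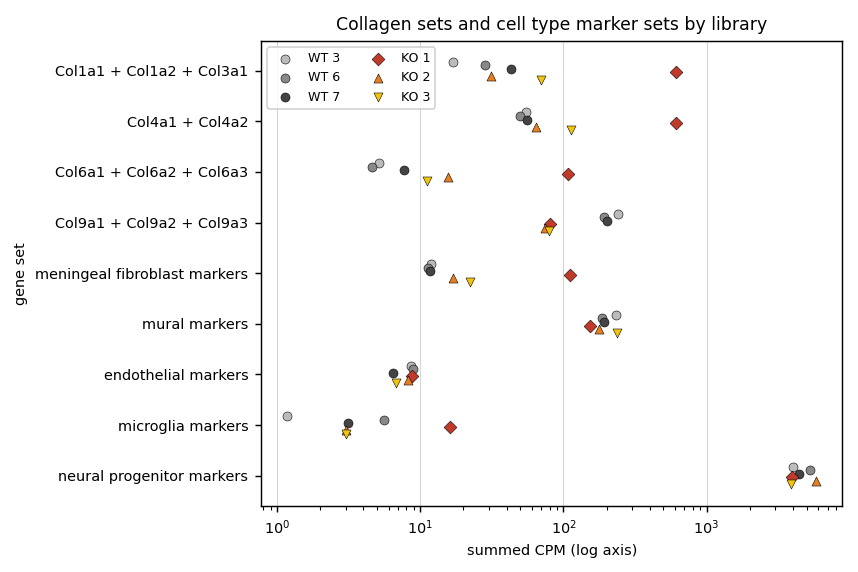
Summed CPM (log axis) of 4 sets of collagen genes and of 5 sets of cell type markers, 1 point per library. KO 1 stands to the right of all other libraries for Col1a1 with Col1a2 and Col3a1, for Col4a1 with Col4a2, for Col6a1 to Col6a3 and for the meningeal fibroblast and microglia markers, but not for Col9a1 to Col9a3.

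Genes that act on collagens were read from lists that hold no collagen gene, and their counts stand beside the 13.5% higher and 15.5% lower over all genes tested. Of 23 genes for chain modification and folding, all tested, 1 rose and 3 fell. P4ha3, a prolyl hydroxylase subunit that stabilises the triple helix, had 37.8, 30.1 and 24.0 CPM in WT and 1.61, 3.24 and 1.80 CPM in KO (-3.78, SE 0.33, adjusted p = 0.00117, edgeR's quasi-likelihood test). The lysyl hydroxylase Plod1 fell by 1.06 (adjusted p = 0.00261) and the prolyl isomerase Ppib by 0.37 (adjusted p = 0.0424), while Crtap, of the prolyl 3-hydroxylation complex, rose by 1.19 (adjusted p = 0.00633). The call of Ppib was lost without any of WT 6, WT 7, KO 1, KO 2 or KO 3. Serpinh1, the collagen chaperone HSP47, had 292, 165 and 171 CPM in WT and 312, 289 and 469.9 CPM in KO. It was not called over all libraries (0.77, adjusted p = 0.0793). It was called higher without WT 3, and its log2 fold change was as high as 1.09 with 1 library left out.

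Of 13 genes for propeptide cleavage and cross-linking, 4 rose and 2 fell, beside 13.5% and 15.5% over all genes tested. Adamts14, a protease that removes the amino-terminal propeptide, had 0.280, 0.251 and 0.237 CPM in WT and 9.45, 5.72 and 5.58 CPM in KO (4.72, SE 0.37, adjusted p = 0.000912, edgeR). The cross-linking oxidases Loxl1 and Loxl2 rose by 2.50 and 1.58 and the protease Tll2 by 3.59, while the carboxy-terminal protease Bmp1 fell by 0.82 and Loxl3 by 0.76. Of these 5 calls only that of Bmp1 held without each library in turn. Lox was read at 0.505 to 1.004 CPM in WT and 1.51 to 5.88 CPM in KO and was not called (1.88, adjusted p = 0.0556). Its log2 fold change was as low as 1.06 with 1 library left out.

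Among 10 tested receptors of collagen, 2 rose and 3 fell, beside the same 13.5% and 15.5%. Adgrg1 (GPR56), which binds type III collagen at the pial surface, had 594, 649 and 635 CPM in WT and 302, 397 and 489 CPM in KO and fell by 0.66 (SE 0.18, adjusted p = 0.0362, edgeR). The discoidin receptor Ddr1 fell by 0.78 (adjusted p = 0.0288) and its relative Ddr2 rose by 1.59 (adjusted p = 0.0147). The uptake receptor Mrc2 rose by 1.49 (adjusted p = 0.0322), and the inhibitory receptor Lair1 fell by 2.18 (adjusted p = 0.00357). Of these 5 only Lair1 held without each library in turn. Itgb1, the beta chain of the collagen-binding integrins, had a log2 fold change of 0.10 (SE 0.16).

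Basement membrane partners of type IV collagen changed in both directions, 6 higher and 5 lower of 16 tested, beside 13.5% and 15.5% over all genes tested. The laminin chains Lama1, Lama4, Lama5, Lamb1 and Lamc3 rose, by 1.10 for Lama5 to 4.83 for Lamc3, and so did the perlecan gene Hspg2 (0.95, adjusted p = 0.0410, edgeR). In Lama1, Lama4, Lamb1 and Lamc3, though not in Lama5, KO 1 was at least 3-fold above both other KO libraries. Lamc3 had 0.168, 0.301 and 0.284 CPM in WT and 18.3, 2.43 and 1.56 CPM in KO, and its log2 fold change was as low as 2.98 with 1 library left out. The calls of Lama4, Lamb1 and Lamc3 were lost without WT 6 or WT 7, that of Lama1 also without WT 3 or KO 1, and that of Hspg2 without WT 6, WT 7, KO 1 or KO 3. Sparc, a collagen-binding matrix protein, had 338, 353 and 718 CPM in WT and 121, 63.7 and 109 CPM in KO (-2.26, SE 0.37, adjusted p = 0.00635). Its relative Smoc1 fell by 2.19 and Pxdn, the enzyme that cross-links type IV collagen, by 1.85, and the calls of Sparc, Smoc1, Pxdn and Lama5 held whichever library was left out. Agrn and Lamb2 fell by 0.70 and 0.86, with calls that did not hold throughout. In 7 of these 16 genes, beside 0.705% of all genes tested, KO 1 was at least 3-fold above both other KO libraries. One of them was Nid1, with 6.00, 15.1 and 13.8 CPM in WT and 89.0, 15.3 and 10.5 CPM in KO, which was not called (1.71, adjusted p = 0.155). The log2 fold change of Nid1 was as low as 0.18 with 1 library left out. Of 12 small proteoglycans and fibril partners, 8 were tested, and 1 of them, the fibril-binding proteoglycan Lum, rose (4.25, SE 1.23, adjusted p = 0.0408, edgeR), beside 13.5% over all genes tested. Lum had 0.505, 0.402 and 0.426 CPM in WT and 22.8, 1.46 and 1.47 CPM in KO, so that KO 1 was 15.5-fold above the next library. Its call was lost without WT 3, WT 6 or WT 7, and its log2 fold change was as low as 1.73 with 1 library left out.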

How the data were processed

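RNA for 3 WT and 3 KO neurosphere libraries was prepared from 3 µg per sample with an Illumina kit, per the labels' protocols. Per the submitters' processing notes, the build was mm10 and the tools included featureCounts 1.5.0-p3, HISAT2 2.0.5 and DESeq2 1.16.1. The sources used here give no settings, strand mode or annotation. Raw read counts per gene and FPKM values, both made by the authors, stood side by side in 1 deposited table. FPKM times gene length and library total gave the deposited counts to within 0.05 reads in all but 4 of 327192 values, and in all 264 collagen values.

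Counts were tested with edgeR 4.0.16 (R 4.3.3) on all genes: TMM scaling, filterByExpr, a quasi-likelihood F-test, two-sided, and Benjamini-Hochberg adjustment over 16606 genes at a threshold of 0.05. The biological coefficient of variation was 26.5%. CPM used TMM-scaled totals, except for the read floor, which used raw totals. Ratios of chains were compared by exact permutation. The fit was checked on simulated counts. Alternatives used limma 3.58.1, DESeq2 1.42.0, other scalings and filters, and left-out libraries. Every pair of replicates differed beyond sampling noise, with chi-square over its degrees of freedom at 16.1 or more. The replicate numbers came from the titles, and the groups share only number 3. The collagen genes, the lists of other genes and the tests were chosen with earlier results of these data known. Every collagen gene is named. Of each other list, the called members (up to 6 with the lowest p) and 9 defining members are named, and Agrn, Lama1, Lama4 and Lamb2 were added after their values were seen.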

Additional observations from a re-analysis of the deposited data

How the results depend on the processing

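No paired analysis was possible because the WT and KO libraries share only the replicate number 3. Of the 13 collagen genes called (6 higher, 7 lower), the count was 12 or 13 with other scalings or with a filter of 1 CPM in 3 libraries. It was 25 with no filter (17 higher, 8 lower) and 22 with DESeq2 (14 higher, 8 lower), and both held all 13 genes. Both also called Col1a1, Col3a1, Col5a1, Col4a1, Col6a2, Col19a1, Col8a1 and Col13a1 higher and Col11a2 lower. The fit with no filter further called Col1a2, Col4a2 and Col6a3 higher. limma-voom with quality weights called 18 (10 higher) and limma on log2(FPKM + 1) called 8 (2 higher). Leaving out 1 library gave 8 to 17 calls (2 to 10 higher, 6 or 7 lower), with 8 calls without WT 6 or without WT 7. Leaving out both WT 3 and KO 1, chosen after seeing the data, gave 19 calls (10 higher, 9 lower), which held 11 of the 13 genes. Over all genes, 4812 calls became 8052 with limma-voom (4133 higher, 3919 lower) and 2178 to 6641 without 1 library (1027 to 3500 higher, 1151 to 3141 lower). The share of higher among all calls went from 2240 of 4812 to 2465 of 4746 with library totals alone. The FACIT sum was 0.419 of WT in FPKM and 0.460 in CPM.

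Log2 fold changes that changed sign all belong to genes that were not called. Col11a1 (-0.01) was 0.0058 with DESeq2's size factors, 0.049 with library totals, 0.038 with limma-voom, 0.039 on log2(FPKM + 1), 0.048 on log2(FPKM + 0.1) and -0.093 to 0.088 without 1 library. Col2a1 (-1.11) was -1.55 to 0.26 without 1 library, the last without WT 3, and 0.38 without both WT 3 and KO 1. Col7a1 (1.42) was -0.32 to 1.87 without 1 library, the first without KO 1, and -0.52 without both. Col26a1 (0.72) was -0.038 to 1.502 without 1 library, the first without KO 1. Col28a1 (0.06) was -0.14 with limma-voom, -0.68 to 0.53 without 1 library and -0.013 without both. Of all alternative values of single collagen genes, 428 kept direction and side of the threshold, 44 newly passed it, 30 no longer passed it and 17 changed sign. The causes were not tested. With 3 libraries a group, chains under about 1 CPM rest on few reads.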

Other observations

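Some collagen genes lie on the same chromosome in mm10 at distances that allow them to be set side by side. Genes other than collagens that may lie between them were not considered. Col9a3 and Col20a1 lie on the same strand of chromosome 2 with 364346 bases between them, and both fell (-1.33 and -1.31). Col6a2, Col6a1 and Col18a1 lie in this order on the same strand of chromosome 10, with 85162 and 326010 bases between them. They had log2 fold changes of 2.47, 2.72 and 3.22, of which that of Col6a2 was not called. Col9a1 and Col19a1 face each other tail to tail on chromosome 1 across 9206 bases, with log2 fold changes of -2.69 and 2.75, of which that of Col19a1 was not called. Col3a1 and Col5a2 lie tail to tail across 24615 bases, and both were highest in KO 1. No test of position was made.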
